A study of Mus musculus with 56 samples.

Results

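The proteasome genes were followed in the livers of hypothyroid mice, of hyperthyroid mice and of hypothyroid mice with a mutated corepressor. They were taken as the gene symbols that start with Psm, a letter from a to f and a number, and that had a mean of at least 1 RPKM (reads per kilobase of transcript, scaled to the aligned reads of the library) over 12 RNA-seq libraries. Of 23813 genes listed, 46 symbols had this form and 43 reached the minimum. One of the 43, Psmc3ip, carries the name of a binding partner of an ATPase subunit but acts in meiotic recombination, so 42 proteasome genes remained. They comprised 7 alpha and 7 beta genes of the 20S core, 3 inducible beta genes, 6 ATPase and 11 non-ATPase genes of the 19S cap, 3 assembly chaperones of the cap, and 5 genes of alternative caps and of an inhibitor. Just below the minimum lay Psma8 (0.967 RPKM) and Psme2b (0.465 RPKM), and Psmb11, the thymus-specific beta subunit, was near 0 (0.0005 RPKM). The lowest genes inside it were Psmc3ip (4.04 RPKM) and Psmd10 (6.19 RPKM).

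The study asked how thyroid hormone and the corepressor NCOR1 shape histone acetylation and transcription in mouse liver. Male wild-type (WT) mice, whose strain the sources used here do not state, and L-NCORdeltaID mice of a mixed C57BL/6;129S background were made hypothyroid over 16 days with 0.15% propylthiouracil (PTU), which blocks hormone synthesis, in chow low in iodine. L-NCORdeltaID mice make, in the liver, an NCOR1 that lacks domains with which it binds the thyroid hormone receptor, and they were compared only in the PTU state. One WT group also received 5 µg T3, the active hormone, by injection during the last 4 to 6 days. By the paper, mice on the PTU diet were randomized to injections of either T3 or vehicle. Thus 4 hypothyroid WT, 4 hyperthyroid WT and 4 hypothyroid L-NCORdeltaID livers were sequenced, all after PTU, and no untreated liver entered the comparison. Over all mice of the study, WT mice were on average older than the mutants, and age and genotype cannot be told apart here. Whether strain background also differed with genotype is not known here, so it cannot be told apart from genotype either. The depth, estimated from the smallest steps of the RPKM values, was 29.2 to 38.3 M reads (M for mega) in hypothyroid WT, 21.4 to 26.1 M reads in hyperthyroid WT and 38.2 to 42.8 M reads in L-NCORdeltaID libraries. The lower depth of the hyperthyroid libraries moved with the treatment.

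The proteasome degrades proteins that carry ubiquitin chains. Its 20S core is a barrel of outer alpha rings and inner beta rings, and 3 of the constitutive beta subunits carry the cleavage sites. The 19S cap binds ubiquitin chains and unfolds the substrate with a ring of ATPases, and other caps open the barrel without ubiquitin. Interferons induce beta subunits that replace the constitutive catalytic ones and favour peptides for antigen presentation. When proteasome activity falls short, the transcription factor encoded by Nfe2l1 raises many of these genes together through antioxidant response elements.

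Because these genes are often described as controlled together, their promoters are shown before the levels. RefSeq promoters of the GRCm38.p6 assembly, with 250 bases before and 50 from the start, were held for 37 of the 43 genes. Each motif was searched on both strands, and a match is only a run of letters. The antioxidant response element letters TGACNNNGC occurred in 6 of the 37 promoters (16.2%) against 12.5% of 27025 promoters, and the longer run TGACTCAGC, which contains the shorter one, occurred in 0 against 0.426%. The CCAAT box occurred in 14 (37.8%) against 37.9%, with 5 of the 7 alpha genes among them. The interferon-stimulated response element letters, GAAA and again GAAA with 2 bases between, occurred in 4 (10.8%) against 3.49%, namely Psmb3, Psmd4, Psmd9 and Psme1. The gamma-activated site letters TTCNNNGAA occurred in 2 (5.41%), Psmb8 and Psmd2, against 8.47%. A direct repeat of the receptor's binding letters, AGGTCA and again AGGTCA with 4 bases between, was in 0 of the 37 and in 0.0111% of all promoters. Over the 10612 promoters of genes tested, the antioxidant response element letters were in 14.8% and the longer run in 0.405%. There the CCAAT box was in 38.6%, the interferon-stimulated letters in 3.18%, the gamma-activated site letters in 7.33% and the direct repeat in 0%. The 5 stretches below were chosen because they belong to genes described in the results and hold 1 or more of these letters, which are in capitals. They are the alpha gene Psma6 (CCAAT on each strand; chr12:55384072-55384221, plus strand), the catalytic gene Psmb5 (TGACNNNGC; chr14:54617996-54618095, minus strand), its inducible counterpart Psmb8 (TTCNNNGAA; chr17:34198075-34198194, plus strand), the chaperone gene Psmd9 (the interferon-stimulated letters, then TGACNNNGC; chr5:123228010-123228189, plus strand) and the cap gene Psme3 (CCAAT on the other strand; chr11:101316113-101316212, plus strand), each written 5′ to 3′ on the strand of the gene.
Psma6: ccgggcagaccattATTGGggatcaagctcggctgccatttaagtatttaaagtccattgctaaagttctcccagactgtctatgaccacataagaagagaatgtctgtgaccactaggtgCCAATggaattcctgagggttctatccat
Psmb5: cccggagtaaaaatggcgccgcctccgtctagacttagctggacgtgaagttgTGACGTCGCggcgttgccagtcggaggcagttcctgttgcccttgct
Psmb8: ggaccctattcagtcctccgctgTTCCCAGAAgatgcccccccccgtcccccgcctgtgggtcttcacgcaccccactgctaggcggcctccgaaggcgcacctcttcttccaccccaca
Psmd9: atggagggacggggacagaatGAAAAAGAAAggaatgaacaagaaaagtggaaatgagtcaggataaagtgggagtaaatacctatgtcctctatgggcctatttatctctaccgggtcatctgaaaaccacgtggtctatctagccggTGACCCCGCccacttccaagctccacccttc
Psme3: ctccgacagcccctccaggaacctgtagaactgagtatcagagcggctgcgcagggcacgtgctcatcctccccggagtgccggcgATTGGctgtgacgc

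The levels differed widely between subunits that are needed in equal numbers in the particle. RPKM is per length, so genes can be set side by side. In hypothyroid WT livers the mean levels of the 7 alpha genes had a median of 45.2 RPKM and ran from 6.31 (Psma3) to 80.9 (Psma7), and those of the 7 beta genes had a median of 78.4 and ran from 19.4 (Psmb3) to 110 (Psmb4). The cap genes lay closer together, with 34.1 to 50.7 RPKM for the 6 ATPase genes and 27.5 to 62.9 for the 11 non-ATPase genes. The 3 inducible beta genes, Psmb8, Psmb9 and Psmb10, were at 11.3 to 16.4 RPKM, below each constitutive beta gene. The chaperone genes had a median of 16.5 RPKM and the alternative caps and inhibitor one of 21.4. Low values of Psma3, Psma5 and Psmb3 have to be read with their sequence, since 40.1%, 79.6% and 97.4% of their longest transcript has a copy of at least 95% identity elsewhere in the genome, and reads that align to several places were not counted. Psmb5 (99.9%), Psma4 (99.7%), Psmd2 (91.9%), Psme2 (82.5%) and Psmd11 (54.6%) were also largely copied, and Psmc1 in part (47.8%), so their levels are uncertain.

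**Figure D1:**
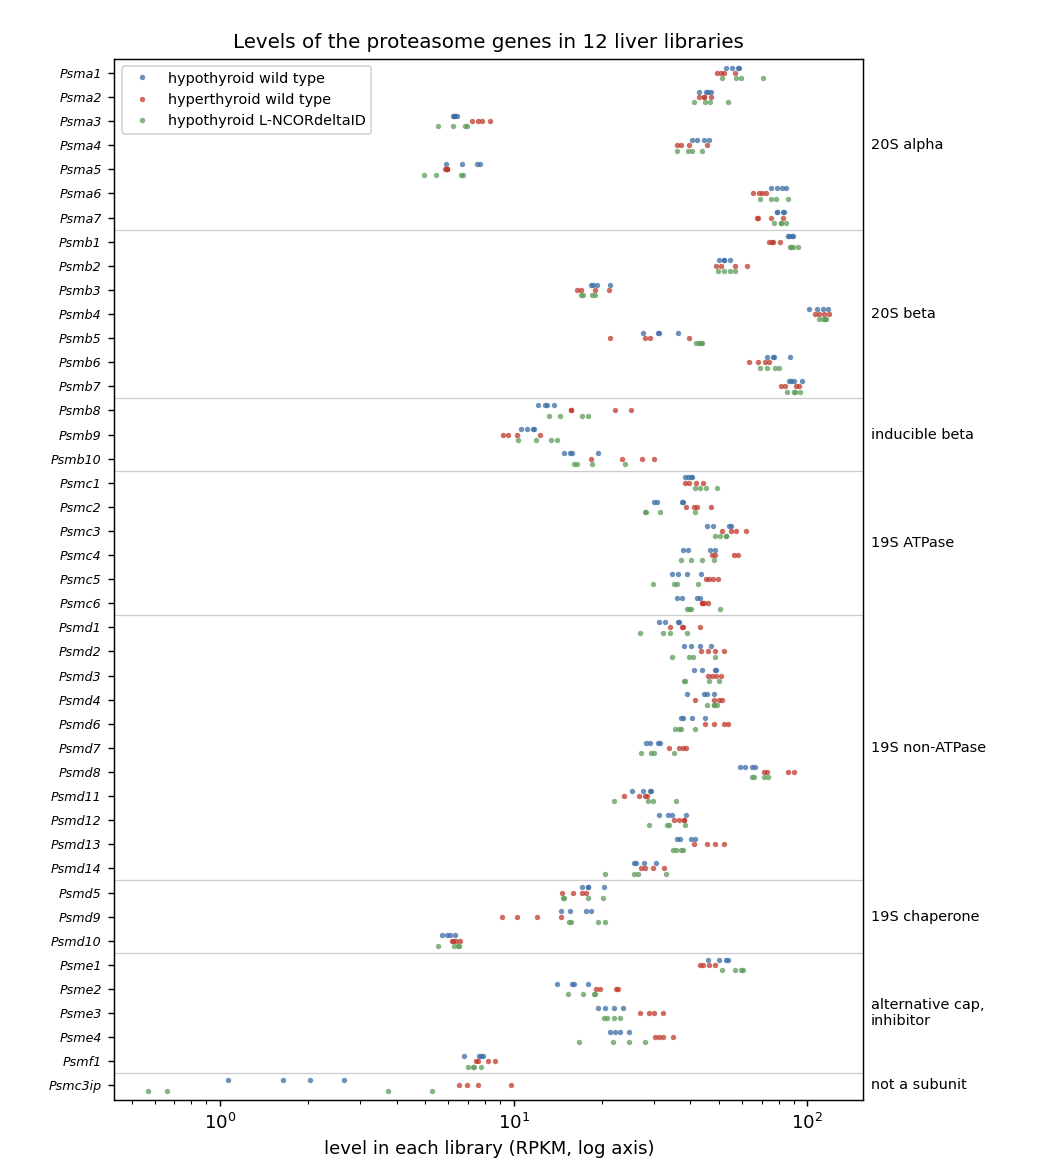
RPKM of the 43 genes (rows, grouped by role) in each of the 12 libraries on a log axis. Each point is 1 library, and most genes lie in a narrow band in every group, whereas Psmc3ip runs from 0.571 to 9.77 RPKM.

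Between libraries of a group the levels varied little. The coefficient of variation of the 42 genes had a median of 6.93% in hypothyroid WT, 7.72% in hyperthyroid WT and 9.91% in L-NCORdeltaID livers, with the highest value within the hyperthyroid group for Psmb5 (25.6%). Summed over the 42 genes, RPKM was 1590 to 1716 in hypothyroid WT, 1654 to 1815 in hyperthyroid WT and 1621 to 1808 in L-NCORdeltaID libraries, and the groups overlapped. After removal of the group means, the levels of 19S cap genes had a median pairwise correlation of 0.71 over the 12 libraries (136 pairs), against 0.39 for pairs of 20S core genes (91 pairs) and 0.47 for a core with a cap gene (238 pairs). These correlations describe libraries that share depth and scaling.

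T3 treatment of hypothyroid WT mice was accompanied by a split between the core and the cap. Of the 14 core genes, 11 lay below their hypothyroid level (median -0.12 on the log2 scale). Of the 17 cap genes, 16 lay above it (median 0.17), as did 69.9% of all genes tested. Below the median change of all genes tested lay 13 of the core and 10 of the cap genes. Tested one by one, 1 core gene was called higher and 0 lower, and 1 cap gene was called higher and 0 lower. Of the 6 genes called higher, 3 belong to the alternative caps. Each gene was tested with limma on log2(RPKM + 0.1), and a gene was called at an adjusted p (Benjamini-Hochberg, over 13941 genes tested) under 0.01. All 43 genes passed the filter on low values. Of them, 6 were called higher and 0 lower, where 24.5% of all genes tested were called higher and 7.71% lower. At an unadjusted p under 0.05 there were 19, against 56.5% of all genes. The groups did not overlap for 11 genes that were higher and 2 that were lower, against 35.8% and 10.8% of all genes.

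The median gene itself was higher by 0.23 on the log2 scale in hyperthyroid livers, so each change was also taken relative to the median gene. Albumin, the most abundant hepatocyte product, fell from 31804 ± 4200 to 14324 ± 2510 RPKM (SD, n = 4 each; limma adjusted p = 0.00818), and the share of the 10 highest genes was 19.4 to 23.1% of summed RPKM in hypothyroid and 14.97 to 17.6% in hyperthyroid WT libraries. The part of this shift in the result was not tested. Relative to the median gene, 2 of the 43 genes were called higher (12.4% of all genes) and 12 lower (13.9%). Over all genes, this scaling moved the share of higher among the called from 76.0% to 47.2%.

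For the core the median of -0.12 stands against 0.23 for all genes tested. None of the 14 was called lower as deposited, and 9 were called lower relative to the median gene, where the median of the 14 was -0.35. Psma6 encodes an alpha subunit (mm9 chr12:56485209-56519441, plus strand) and was at 82.0, 79.0, 84.9 and 75.3 RPKM in the hypothyroid, 65.4, 68.3, 69.9 and 72.2 in the hyperthyroid and 69.2, 78.0, 75.3 and 85.7 in the L-NCORdeltaID livers. Every hyperthyroid value lay below every hypothyroid WT value. The difference of -0.22 ± 0.06 (SE, log2) missed the threshold (limma adjusted p = 0.0199), and relative to the median gene Psma6 fell by 0.45 (adjusted p = 0.000636). Psmb1, a beta subunit without a cleavage site (chr17:15612685-15635240, minus strand), was at 89.1, 86.4, 86.1 and 89.6 RPKM in the hypothyroid, 75.9, 74.1, 76.7 and 80.5 in the hyperthyroid and 89.4, 87.3, 87.9 and 92.9 in the mutant livers. Here too the WT groups did not overlap, and the difference was -0.19 ± 0.06 (adjusted p = 0.0204), or -0.43 relative to the median gene (adjusted p = 0.000756). Psma7, an alpha subunit, was at 79.1, 83.4, 82.4 and 78.7 RPKM in the hypothyroid and 68.2, 67.7, 82.99 and 75.4 in the hyperthyroid livers, so the groups overlapped through 1 library. Relative to the median gene it fell by 0.38 (adjusted p = 0.00105). The remaining core genes called lower on that scale were Psma1, Psma2, Psma4, Psma5, Psmb6 and Psmb7. When 1 library was left out, the calls of Psma6, Psma7, Psmb1 and Psmb6 on that scale were kept in all 8 fits, whereas that of Psmb7 was lost in 7, those of Psma2 and Psma4 in 6, that of Psma5 in 5 and that of Psma1 in 4.

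Psma3 was the exception in the alpha ring. Its RPKM was 6.29, 6.31, 6.23 and 6.42 in the hypothyroid, 7.22, 7.80, 8.28 and 7.57 in the hyperthyroid and 6.83, 6.22, 5.52 and 6.97 in the L-NCORdeltaID livers, and the WT groups did not overlap. It rose by 0.28 ± 0.07 (limma adjusted p = 0.0090), and relative to the median gene the difference was 0.05 (adjusted p = 0.533). The call of Psma3 was lost in every fit that left out 1 library.

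The cap median of 0.17 is below the 0.23 of the median gene, and relative to it 0 of the 17 were called in either direction. Psmd7, a non-ATPase subunit of the lid (chr8:110104281-110112382, minus strand), was the only cap gene called as deposited. It was at 29.1, 31.6, 31.1 and 28.2 RPKM in the hypothyroid, 33.8, 36.5, 37.9 and 38.7 in the hyperthyroid and 29.5, 27.2, 30.2 and 35.2 in the mutant livers, a rise of 0.29 ± 0.07 (adjusted p = 0.00742) with no overlap between the WT groups. The call was lost without any 1 of the libraries except hyperthyroid replicate 1, with the change between 0.26 and 0.33. All 6 ATPase genes lay above 0, from 0.05 for Psmc1 (adjusted p = 0.543) to 0.31 for Psmc2 (adjusted p = 0.0268). Of the non-ATPase genes, Psmd8 had the largest change (0.34, adjusted p = 0.0127) and Psmd11 the only one below 0 (-0.06, adjusted p = 0.548).

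**Figure D2:**
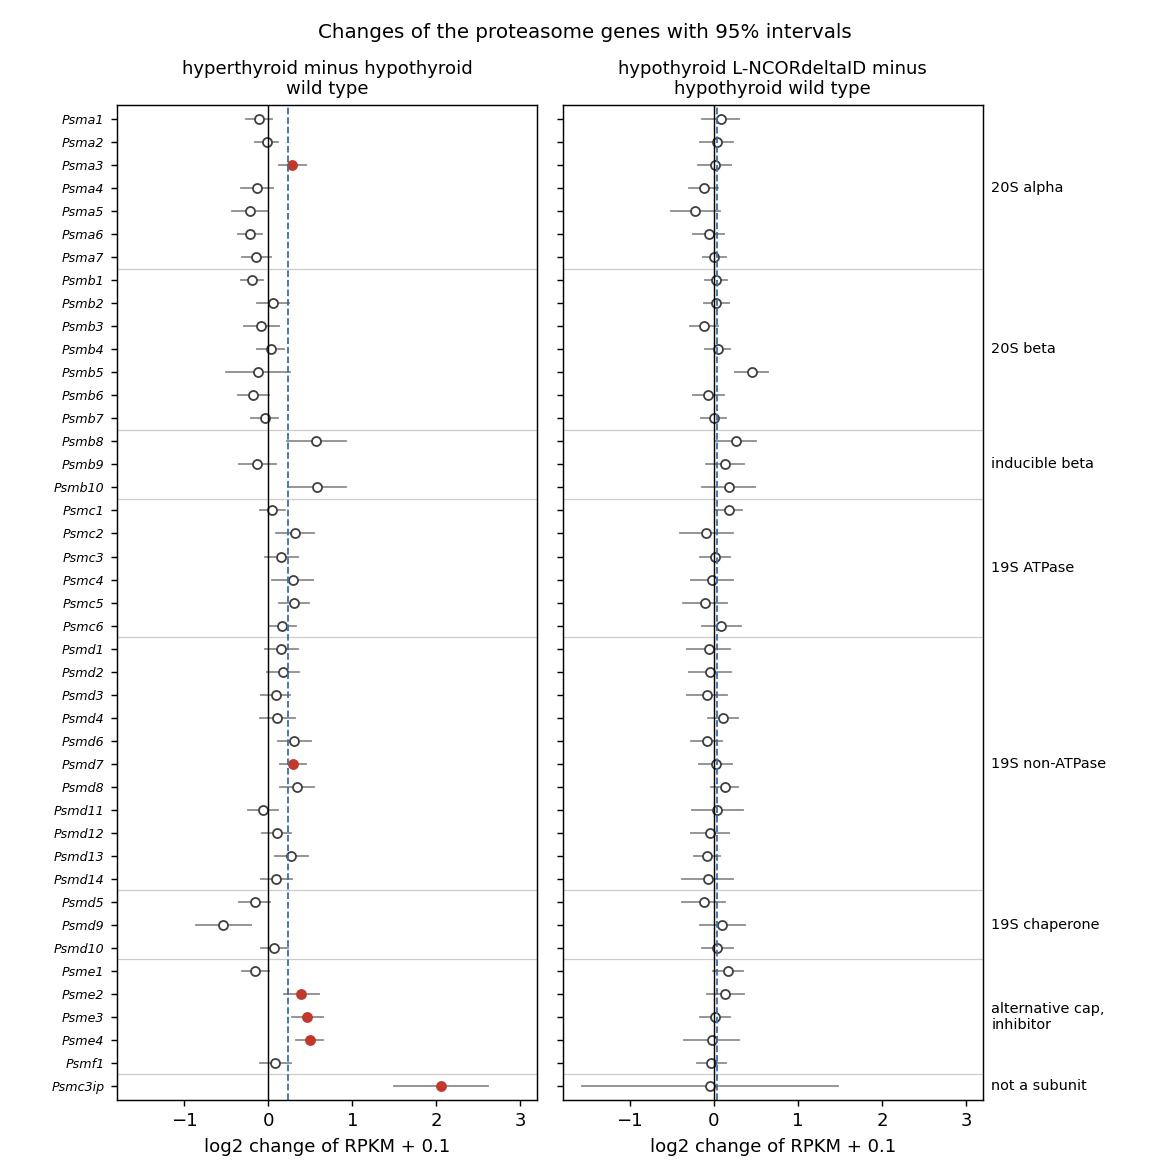
Log2 change of RPKM + 0.1 for each of the 43 genes with its 95% interval, for T3 in WT (left) and for L-NCORdeltaID against WT in the PTU state (right). Filled points are genes called at an adjusted p under 0.01, the solid line is 0 and the dashed line the median of all genes tested. The 6 filled points are all in the left panel, where 13 of the 14 core genes lie left of the dashed line.

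The balance of cap to core transcripts was taken as the summed RPKM of the 17 cap genes over that of the 14 core genes in each library, a ratio that does not depend on the scaling of the library. It was 0.826, 0.901, 0.876 and 0.807 in hypothyroid WT, 1.0005, 1.078, 1.084 and 1.005 in hyperthyroid WT and 0.819, 0.806, 0.841 and 0.913 in L-NCORdeltaID libraries. Each hyperthyroid ratio was above all 8 hypothyroid ratios, and WT and mutant ratios overlapped. Group means were 0.852 ± 0.044, 1.04 ± 0.045 and 0.845 ± 0.048 (SD, n = 4 each). The ratio is given as a description, with no test. With genes found to be copied over more than 50% of their transcript left out, 10 core and 15 cap genes remained. Among the cap genes kept, Psmd14 was not searched for copies. The ratio then ran from 0.832 to 0.933, from 1.04 to 1.11 and from 0.843 to 0.937, respectively. Core transcripts were shorter (median 1101 bp, from 766 to 2846) than cap transcripts (median 1785 bp, from 1316 to 3112), and over all genes of at least 1 RPKM the median T3 change was 0.18 for transcripts up to 1000 bp, 0.13 for 1000 to 1500 bp, 0.16 for 1500 to 2000 bp, 0.21 for 2000 to 3000 bp and 0.27 above 3000 bp. The part of transcript length in the ratio was not tested.

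**Figure D3:**
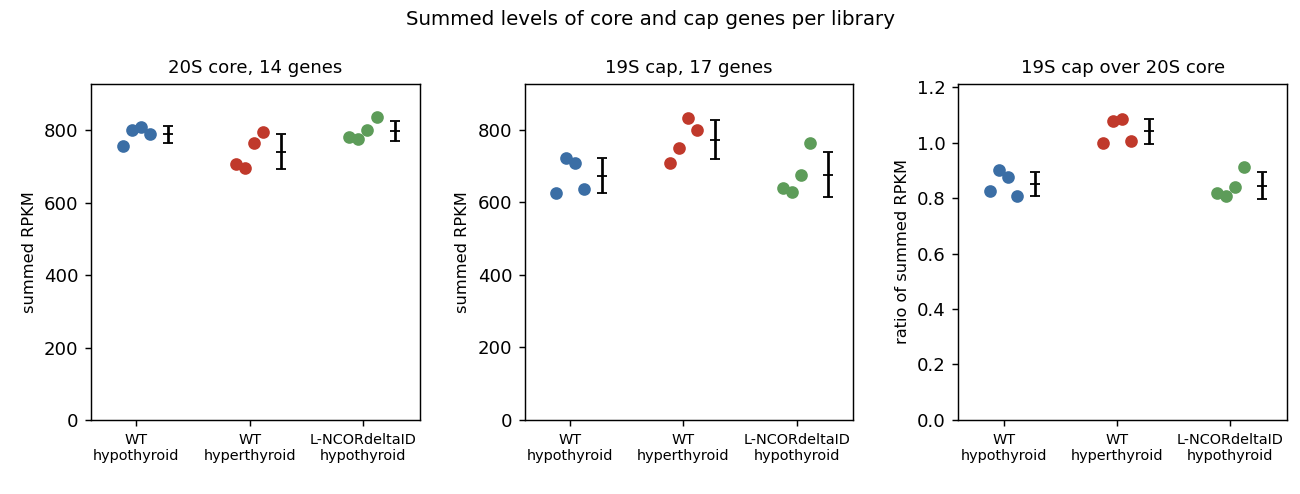
Summed RPKM of the 14 core genes, of the 17 cap genes and their ratio in each library, with the group mean and SD as bars. The hyperthyroid libraries have ratios from 1.0005 to 1.084, above the 0.806 to 0.913 of the 8 hypothyroid libraries.

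The alternative caps held 3 of the 6 genes called higher. Psme4 encodes PA200, a single-chain cap (chr11:30671726-30780361, plus strand). Its RPKM was 22.2, 23.1, 24.7 and 21.3 in the hypothyroid, 30.4, 31.2, 34.8 and 32.2 in the hyperthyroid and 24.6, 16.7, 21.7 and 28.1 in the L-NCORdeltaID livers. All 4 hyperthyroid values exceeded the other 8. Psme4 rose by 0.49 ± 0.07 (adjusted p = 0.000591), and relative to the median gene by 0.26 (adjusted p = 0.00606), which made it the only proteasome gene called higher on both scales. The call relative to the median gene was lost in 6 of 8 fits that left out 1 library, and kept without hyperthyroid replicate 1 and without hypothyroid replicate 3.

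Psme3 encodes PA28 gamma, a nuclear cap (chr11:101177527-101184851, plus strand). It was at 20.5, 23.6, 22.02 and 19.4 RPKM in the hypothyroid, 30.04, 26.9, 32.2 and 29.0 in the hyperthyroid and 23.0, 20.3, 20.7 and 22.04 in the mutant livers, again with each hyperthyroid value above the other 8. The rise was 0.47 ± 0.08 (adjusted p = 0.00189) and 0.23 relative to the median gene (adjusted p = 0.0281).

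Psme1 and Psme2 encode the partners of PA28 alpha beta, the interferon-inducible cap, and lie close together on chromosome 14 (chr14:56196960-56200366, plus strand, and chr14:56206278-56209950, minus strand). Psme1 was at 52.9, 45.8, 50.1 and 53.5 RPKM in the hypothyroid, 48.4, 46.3, 43.0 and 44.0 in the hyperthyroid and 60.3, 56.9, 59.4 and 51.2 in the mutant livers. Psme2 was at 16.1, 15.8, 14.1 and 17.9 in the hypothyroid, 22.4, 22.6, 19.1 and 19.7 in the hyperthyroid and 15.4, 18.8, 18.9 and 17.3 in the mutant livers. The WT groups overlapped for Psme1 and not for Psme2. Psme2 rose by 0.39 ± 0.09 (adjusted p = 0.00734), which was 0.15 relative to the median gene (adjusted p = 0.303), whereas Psme1 changed by -0.15 ± 0.07 (adjusted p = 0.104) and fell by 0.39 relative to the median gene (adjusted p = 0.00741), a call lost in 6 of 8 fits that left out 1 library. The ratio of Psme2 to Psme1 was 0.315 in hypothyroid and 0.460 in hyperthyroid WT livers, with no overlap (exact two-sided permutation test, p = 0.0286, the smallest that 4 against 4 allows; 0.171 after Benjamini-Hochberg adjustment over 12 tests of ratios). The call of Psme2 was kept only in the fits without hyperthyroid replicate 3 and without hypothyroid replicate 4, with a change between 0.33 and 0.44 over all fits that left out 1 library. Psmf1, the inhibitor PI31, was not called (0.09, limma adjusted p = 0.414).

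The inducible beta genes did not move as a set. Psmb8 (chr17:34334666-34338399, plus strand) encodes the inducible counterpart of Psmb5, which carries the chymotrypsin-like site. Psmb8 was at 12.8, 12.1, 13.8 and 12.98 RPKM in the hypothyroid, 25.1, 22.2, 15.7 and 15.7 in the hyperthyroid and 14.3, 18.0, 17.04 and 13.2 in the L-NCORdeltaID livers. The WT groups did not overlap, and the hyperthyroid livers fell into a higher and a lower pair. The difference was 0.57 ± 0.15 (limma adjusted p = 0.0130), past 0.05 but not past 0.01, and relative to the median gene it was 0.34 (adjusted p = 0.153).

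Psmb10 (chr8:108459628-108462292, minus strand), the counterpart of Psmb7 with the trypsin-like site, was at 19.4, 15.5, 14.8 and 15.8 RPKM in the hypothyroid, 29.996, 27.4, 18.3 and 23.5 in the hyperthyroid and 16.4, 23.9, 18.4 and 16.1 in the mutant livers. It had the largest positive difference of the 42 genes (0.58 ± 0.15, adjusted p = 0.0121; relative to the median gene 0.34, adjusted p = 0.159), and its WT groups overlapped. Psmb9, the counterpart of Psmb6 with the caspase-like site, was at 11.6, 10.6, 11.1 and 11.7 RPKM in the hypothyroid, 10.3, 12.3, 9.204 and 9.57 in the hyperthyroid and 11.9, 13.4, 14.01 and 10.3 in the mutant livers. Its values overlapped in all groups (-0.13 ± 0.10, adjusted p = 0.289).

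The constitutive catalytic genes were not called as deposited, and relative to the median gene Psmb6 fell by 0.41 (limma adjusted p = 0.00178) and Psmb7 by 0.28 (adjusted p = 0.0053). Psmb6 was at 72.9, 76.3, 76.9 and 87.5 RPKM in the hypothyroid, 67.9, 63.3, 73.9 and 71.9 in the hyperthyroid and 69.0, 80.1, 77.5 and 72.7 in the mutant livers. Psmb7 was at 86.9, 90.4, 96.2 and 88.2 in the hypothyroid, 84.03, 81.5, 91.8 and 93.7 in the hyperthyroid and 94.4, 85.5, 90.6 and 90.2 in the mutant livers. Both overlapped between WT groups. The ratio of Psmb8 to Psmb5 was 0.410 in hypothyroid and 0.667 in hyperthyroid WT livers (exact permutation p = 0.0857), that of Psmb10 to Psmb7 0.181 and 0.278 (p = 0.0571), and that of Psmb9 to Psmb6 0.144 and 0.149 (p = 0.8286). None reached an adjusted p under 0.05 over the 12 tests.

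**Figure D4:**
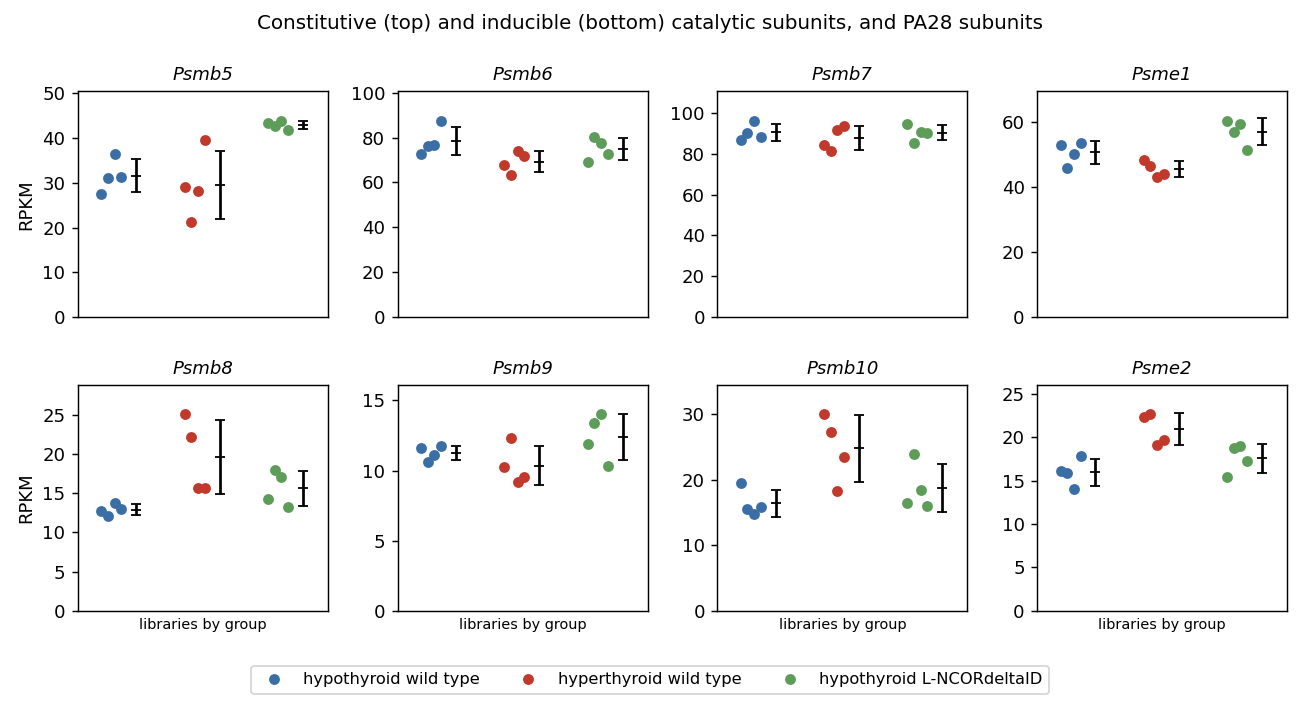
RPKM of the constitutive catalytic genes and Psme1 (top) and of their inducible counterparts and Psme2 (bottom) in each library, with the group mean and SD as bars. Psmb8 and Psme2 in hyperthyroid livers lie above all 4 hypothyroid WT values, and Psmb5 is highest in the L-NCORdeltaID livers, at 41.8 to 43.9 RPKM.

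Immune cells also express the inducible genes, and in bulk tissue more cells of a type cannot be told apart from more RNA per cell. All 11 Kupffer cell markers measured, among them Clec4f, Timd4 and Cd5l, were called higher in hyperthyroid livers (median 1.94 on the log2 scale), with a summed RPKM of 98.8 to 140 in hypothyroid WT, 341 to 494 in hyperthyroid WT and 105 to 291 in L-NCORdeltaID libraries. Of 10 lymphocyte markers tested, 1 (Ptprc) was called higher, and the 12 listed summed to 2.48 to 5.43, 5.76 to 8.74 and 2.03 to 4.47 RPKM. Endothelial and stellate markers were called higher in 3 of 6 each. Of 5 cholangiocyte markers, Krt7 was called higher and Sox9 lower. Of 6 hepatocyte markers, Hnf4a was called higher and Alb and Ttr lower. Of all genes tested, 24.5% were called higher and 7.71% lower. Relative to the median gene, all 11 Kupffer cell markers and Ptprc were still called higher, with 1 endothelial and 0 stellate markers higher, Sox9 lower and Krt7 not called, and of the hepatocyte markers Ttr and Ass1 lower. On that scale 12.4% of all genes were called higher and 13.9% lower. The part of these cells in the proteasome results was not tested.

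The assembly chaperones of the cap were not called as deposited. Psmd9 encodes the chaperone p27 (chr5:123678199-123700140, plus strand) and had the largest negative change of all members. Its RPKM was 17.7, 14.5, 15.5 and 18.4 in the hypothyroid, 10.3, 9.13, 12.04 and 14.5 in the hyperthyroid and 15.5, 20.4, 19.3 and 15.7 in the L-NCORdeltaID livers. The highest hyperthyroid value just passed the lowest hypothyroid WT value. The difference was -0.53 ± 0.14 (adjusted p = 0.0133), and relative to the median gene Psmd9 fell by 0.77 (adjusted p = 0.00209). Psmd5, another chaperone of the ATPase ring, was at -0.16 (adjusted p = 0.133) and fell by 0.40 relative to the median gene (adjusted p = 0.00274). Psmd10, known as gankyrin, was at 0.07 (adjusted p = 0.415).

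Psmc3ip had the largest change of all 43 genes. It was at 2.02, 1.07, 1.63 and 2.66 RPKM in the hypothyroid, 6.97, 7.55, 9.77 and 6.51 in the hyperthyroid and 0.661, 0.571, 3.74 and 5.29 in the L-NCORdeltaID livers. It rose by 2.06 ± 0.25 in WT livers (adjusted p = 0.000217), and the mutant livers fell into a low and a higher pair. The call was lost when all 12 libraries, mutants included, were fitted together. Psmc3ip (chr11:100953137-100956750, minus strand) shares 385 exonic bases, 21.2% of its exons, with the neighbour Mlx on the other strand, which rose by 0.99 (adjusted p = 4.8e-05) from 17.01 to 33.8 RPKM. It is not known here whether reads were counted by strand, so reads of the pair cannot be told apart.

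In hypothyroid mice, the L-NCORdeltaID livers showed no called difference in these genes. By limma, 0 of 43 genes were called higher and 0 lower, against 0.725% and 0.544% of 13790 genes tested. At an unadjusted p under 0.05 there were 3, against 20.5% of all genes. The groups did not overlap for 2 higher and 0 lower, against 7.78% and 5.36% of all genes. The median change was 0.01 for the 14 core genes, -0.05 for the 17 cap genes and 0.03 for all genes tested. The marker lists of Kupffer cells and of the other liver cells gave 0 calls.

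Psmb5 was the member with the largest difference. Its RPKM was 27.5, 31.1, 36.4 and 31.3 in hypothyroid WT, 29.1, 21.3, 28.1 and 39.6 in hyperthyroid WT and 43.4, 42.8, 43.9 and 41.8 in L-NCORdeltaID livers. Every mutant value exceeded every WT value, and the mutant livers lay close together. The difference from hypothyroid WT was 0.45 ± 0.09 (adjusted p = 0.0219), which passes 0.05 and not 0.01. Psmb5 (chr14:55232644-55236851, minus strand) overlaps the microRNA gene Mir686 on the same strand over 109 exonic bases, 11.8% of its exons. Mir686 was called higher (0.69, adjusted p = 0.0043, from 68.0 to 109 RPKM), but reads over the shared bases cannot be told apart between them. Its value is thus no separate measure. Psmb5 is also copied elsewhere in the genome over 99.9% of its longest transcript, so its level is uncertain. The other gene without overlap was Psmc1, an ATPase subunit, at 0.18 (adjusted p = 0.186), and 47.8% of its longest transcript is copied elsewhere. Psma5, an alpha subunit, had the largest negative difference. It was at 5.87, 7.67, 7.48 and 6.66 RPKM in hypothyroid WT, 5.95, 5.92, 5.94 and 5.86 in hyperthyroid WT and 5.46, 4.95, 6.60 and 6.73 in mutant livers, and the hypothyroid groups overlapped (-0.22 ± 0.13, adjusted p = 0.369).

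Hyperthyroid WT livers were compared with hypothyroid L-NCORdeltaID livers, which equals a test of whether the above T3 and mutant effects differ, since both were taken against the same hypothyroid WT livers. Of the 43 genes, 2 were called higher and 0 lower (15.5% and 5.7% of 14017 genes tested), and 16 had an unadjusted p under 0.05, against 48.4% of all genes. The groups did not overlap for 8 higher and 4 lower, against 28.7% and 9.57% of all genes. Psme3 was higher by 0.45 ± 0.08 (adjusted p = 0.00276). Psmd6, a non-ATPase subunit (chr14:14944698-14953498, minus strand), was at 37.0, 45.0, 40.5 and 37.8 RPKM in hypothyroid WT, 44.7, 48.0, 53.8 and 52.1 in hyperthyroid WT and 37.2, 35.4, 36.6 and 41.6 in mutant livers. It was higher by 0.39 ± 0.09 than in the mutant (adjusted p = 0.00746), with no overlap. Both calls were lost without L-NCORdeltaID replicate 3, and that of Psmd6 was kept only without hyperthyroid replicate 1 or L-NCORdeltaID replicate 4 (0.35 to 0.44). The largest differences were those of Psmc3ip (2.10, adjusted p = 0.0301) and Psmd9 (-0.63 ± 0.16, adjusted p = 0.0120), neither past 0.01.

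The median gene was higher by 0.19 in this comparison. Relative to it, 0 of the 43 genes were called higher (7.51% of all genes) and 5 lower (9.14%). These were Psmd9 (-0.83, adjusted p = 0.00341), Psmb5 (-0.77, adjusted p = 0.00642), Psme1 (-0.52, adjusted p = 0.00356), Psmb1 (-0.41, adjusted p = 0.00358) and Psma7 (-0.34, adjusted p = 0.00936). Without L-NCORdeltaID replicate 3 none of the 5 was called, and without any other library 1 to 3 were. The core had a median of -0.05 and the cap one of 0.21 on the deposited scale.

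Genes that serve the proteasome were counted beside it, 45 of them tested. After T3, 8 were called higher and 2 lower, and relative to the median gene 1 was higher and 8 lower, against the shares of all genes given for the T3 comparison above. In L-NCORdeltaID livers 0 were called. Nfe2l1, the factor that raises proteasome genes when activity is short, was at 30.6 to 33.2 RPKM in hypothyroid and 36.3 to 55.3 in hyperthyroid WT livers (0.50 ± 0.12, adjusted p = 0.0091), and Ngly1, the deglycosylase that activates its product, rose by 0.27 (adjusted p = 0.00702). Relative to the median gene neither was called. Nfe2l2, its relative for oxidative stress, was at 28.9 to 31.9 and 19.2 to 23.1 RPKM and fell by 0.53 ± 0.07 (adjusted p = 0.000461). The core assembly chaperone gene Psmg3 was at 10.5, 11.97, 10.9 and 11.6 RPKM in hypothyroid and 6.18, 6.00, 7.89 and 8.38 in hyperthyroid WT livers, with no overlap (-0.66 ± 0.12, adjusted p = 0.0018). Pomp, which matures the core, changed by 0.17 (adjusted p = 0.0775).

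The ubiquitin gene Ubb was at 0.04 (adjusted p = 0.636) and was not called. Uba1, the enzyme that activates ubiquitin, rose by 0.44 ± 0.07 (adjusted p = 0.000842). The shuttle gene Ubqln1 rose by 0.41, the unfolding cofactor gene Nploc4 by 0.55 and the proteasome-bound ligase gene Ube3c by 0.30 (adjusted p = 0.00373, 0.00203 and 0.00516). Of the antigen processing and interferon genes, Irf1, which drives inducible beta genes, was at 3.91, 4.11, 5.04 and 4.14 RPKM in hypothyroid and 10.9, 16.7, 9.48 and 6.82 in hyperthyroid WT livers. It rose by 1.26 ± 0.23 (adjusted p = 0.00207) and was the only one of the 45 called higher relative to the median gene. The class I gene H2-D1 rose by 0.47 (adjusted p = 0.00378). Against L-NCORdeltaID livers, Uba1, Nploc4 and Nfe2l1 were called higher and Psmg3, Nfe2l2 and Mafk lower, 3 of 45 in each direction where 15.5% and 5.7% of all genes were called. Relative to the median gene 0 of the 45 were higher and 5 lower, against 7.51% and 9.14% of all genes.

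The starts of these genes were set against 37200 deposited regions with acetylated histone H3 (K9 or K27), merged from hypothyroid and hyperthyroid WT livers on mm9 and with no value per liver. Each gene with 1 protein-coding record in the annotation was given the outermost 5′ end of that record as its start. Of 41 such members, 39 had this start in a region (95.1%), against 86.8% of 11729 genes tested. Members had to reach a mean of 1 RPKM but genes tested only 0.1 RPKM in 4 or more libraries, so these shares come from unlike levels. The exceptions were Psma6 and Psmf1, for which starts further inside the record were not searched. The regions at the 39 starts had a median length of 3948 bp, from 2135 to 14762 bp, against 3957 bp for all. The longest held the start of Psmd9, followed by those of Psmb6 (10823 bp) and Psmb10 (9099 bp). Within 1 kb of 8 of the 41 starts began a gene on the other strand, as near as 32 bp for Psmc2 and Dnajc2, 75 bp for Psmc5 and Ftsj3 and 76 bp for Psma7 and Ss18l1. Such starts were not counted over all genes tested, so whether 8 of 41 is unusual is not known here.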

How the data were processed

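Poly(A) RNA from 12 snap-frozen livers, 4 independent animals per group, was sequenced by the authors, who aligned reads to mm9 with STAR and quantified them with HOMER. Versions and strand setting are not given in the sources used here. The deposited RPKM values were scaled by the authors to uniquely aligned reads. The first listed transcript of each gene was used, and 1 transcript without a gene name (at most 0.00079% of summed RPKM) was dropped. Depth was estimated from the smallest steps of the RPKM values, and speaks to counting error only. A gene was tested if 4 or more libraries of a comparison reached 0.1 RPKM, on log2(RPKM + 0.1) with limma 3.58.1 (R 4.3.3, variance trend), only the groups compared entering the fit, with Benjamini-Hochberg adjustment over all genes tested and a threshold of 0.01, the study's. Errors are SE unless named as SD. The fold changes understate those of low genes. The same fit was made after scaling each library by its median ratio over genes. Ratios of 2 genes were compared by exact two-sided permutation tests (scipy 1.17.1; Python 3.11.15, pandas 2.3.3, numpy 2.4.6, matplotlib 3.10.9). The fitting script was tested on simulated data.

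The members, the lists of pathway and marker genes and the groups were chosen with earlier results of these data known. Values in every library are given for the catalytic pairs, Psme1 and Psme2, up to 5 called members with the smallest adjusted p per comparison and direction, and the members with the largest change in either direction. The same rule on the scale of the median gene named Psma6, Psmb1 and Psma7. Psma3, Psmd8, Psmd11, Psmc1 and Psmc5 were named after their values were seen. Alternatives in pseudocount, filter, fit, block, scaling, threshold, transcript and libraries were tried, and 0 columns of sample values were left unused. The deposited list of acetylated regions, on mm9, holds chromosome, start and end from the authors' merged peaks. The other libraries of the 56 samples are not analysed here. Values of some pathway genes are not reported here.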

Additional observations from a re-analysis of the deposited data

Results flagged for a closer look

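Psmc6, an ATPase gene, was at 50.4 RPKM in L-NCORdeltaID replicate 4, which stood apart from the other 3 livers of its group by Dixon's criterion. It was 1 of 129 combinations of gene and group tested, and chance gives about 1 in 20.

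The T3 effect and the NCOR1 mutant effect differed, by the test of hyperthyroid WT against L-NCORdeltaID livers, for 2 genes as deposited. The T3 effect minus the mutant effect was 0.39 on the log2 scale for Psmd6 and 0.45 for Psme3. Relative to the median gene it differed for 5 other genes, with -0.34 for Psma7, -0.41 for Psmb1, -0.77 for Psmb5, -0.83 for Psmd9 and -0.52 for Psme1. Both effects were taken against the same hypothyroid WT livers, so they are not independent.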

How the results depend on the processing

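The count of proteasome genes called after T3 depended on the setting. In place of 6 higher and 0 lower, scaling to the median gene gave 2 and 12, adjusted p under 0.05 gave 14 and 3, a log2 change above 1 left 1 higher, no variance trend gave 3 higher, the fit of all 12 libraries gave 1 lower, and the fit with the replicate block gave 4 higher and 1 lower and lost Psma3, Psmd7 and Psme2. Leaving out each library gave 3 to 6 higher and 0 to 1 lower (relative to the median gene 1 to 2 and 6 to 10), and Psme4, Psme3 and Psmc3ip remained called in each such fit on the deposited scale, whereas Psma3 was lost in every one and Psmd7 and Psme2 in most. The fit of all 12 libraries lost Psma3, Psmc3ip and Psmd7. The core median of -0.12 became -0.35 relative to the median gene and ran from -0.15 to -0.064 without 1 library (relative to the median gene from -0.38 to -0.30). The cap median of 0.17 became -0.066 and ran from 0.13 to 0.21 (from -0.11 to -0.04).

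In L-NCORdeltaID livers adjusted p under 0.05 gave 1 gene higher, and leaving out a library 0 to 0 in each direction. For hyperthyroid WT against L-NCORdeltaID, in place of 2 higher and 0 lower, all 12 libraries in 1 fit gave 5 and 4, no variance trend 1 higher, the replicate block 0 higher, scaling to the median gene 0 and 5, adjusted p under 0.05 9 and 4, and a log2 change above 1 gave 0 higher. Leaving out a library gave 0 to 6 higher and 0 to 2 lower (relative to the median gene 0 to 0 and 0 to 3). Of these fits, Psme3 was lost only without L-NCORdeltaID replicate 3, and Psmd6 in most. The core median of -0.05 became -0.24 relative to the median gene and ran from -0.08 to -0.020 (from -0.28 to -0.22), and the cap median of 0.21 became 0.017 and ran from 0.15 to 0.28 (from -0.061 to 0.09).

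The ratio of cap to core without 1 library ran from 0.836 to 0.867 in hypothyroid WT, from 1.03 to 1.06 in hyperthyroid WT and from 0.822 to 0.858 in L-NCORdeltaID livers. Without Psmb5 it was 0.888, 1.085 and 0.893, above the full ratio in each group. The ratio settings and the scaling with libraries left out were chosen after seeing the data. Replicate numbers did not pair the livers: same-number correlations of deviations were 0.06, -0.08, 0.09 and -0.02 for T3. For L-NCORdeltaID against hypothyroid WT they were larger but of mixed sign (0.27, -0.21, 0.15 and -0.19), and pairs of unlike number ran from -0.31 to 0.32. The replicate block therefore serves as an alternative only. The cause of these shifts was not tested. At 0.1 RPKM a library held 2.14 to 4.28 reads per kilobase, which limits low genes and not the 42 proteasome genes.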
